A study of Mus musculus with 7 samples.

Results

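Sema3a, Sema3d, Sema3e, Sema5b, Sema6a, Nrp2 and Slit2 were taken by name as the semaphorin, neuropilin and Slit genes of an in situ panel, 7 of the 297 genes measured. Their transcripts were counted in 7 coronal brain hemisections of wild-type mice, cut fresh frozen at 10 µm and read by Xenium, an imaging assay that counts single transcripts inside segmented cells. The anterior group held 2 sections at bregma -0.58 mm (replicates 1 and 2), the intermediate group 2 sections between -0.7 and -0.82 mm (replicates 1 and 2) and the posterior group 3 sections at -0.94 mm (replicates 1, 3 and 4). No group carried an allele, a transgene or a treatment, and the position of the cut was what set the groups apart. Replicates 1 and 2 lay on slide 1 and posterior replicates 3 and 4 on slide 2. Whether the sections are of separate animals is not stated in the labels, and all p-values here reflect only how these sections vary, a spread that may be technical. Cells were sorted by transcripts that are not members: VGLUT2 cells held at least 5 transcripts of Slc17a6 (the vesicular glutamate transporter of thalamic neurons), VGLUT1 cells at least 5 of Slc17a7 (that of cortical and hippocampal neurons), GAD cells at least 5 of Gad1 and Gad2 together (the enzymes that make GABA), and oligodendrocyte-lineage cells at least 5 of Sox10 with none of these conditions met. The 4 classes held 19661 VGLUT2, 92411 VGLUT1, 92349 GAD and 25206 oligodendrocyte-lineage cells, 229627 of 384076 cells in all. The 59491 cells that met more than 1 neuron condition were set aside, as segmented cells can hold transcripts of their neighbours. Any neuron that itself makes more than 1 of these transcripts may have been set aside with them.

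Semaphorins are guidance proteins that steer growing axons and migrating cells, and many remain expressed in the adult brain. Class 3 semaphorins (Sema3a, Sema3d, Sema3e) are secreted and mostly act through neuropilin and plexin receptors, with Sema3e known to bind plexin D1 without a neuropilin, whereas Sema5b and Sema6a span the membrane of the cell that makes them. Nrp2 is a neuropilin, a co-receptor for secreted semaphorins, and Slit2 is a secreted ligand of the Robo receptors that repels many forebrain axons, thalamocortical ones among them.

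Each section held 50169 to 60720 cells and 17438577 to 23432215 transcripts, with a median of 339 transcripts per cell over all sections. No cell barcode was shared between sections. Each class carried its own markers: Slc17a6 stood at 36.2 transcripts per 1000 in VGLUT2 cells and at 0.818 to 1.49 in the other 3 classes, and the summed level of 7 oligodendrocyte-lineage genes was 200 per 1000 in oligodendrocyte-lineage cells against 18.8 in VGLUT2, 12.2 in VGLUT1 and 23.9 in GAD cells. A member's level is given as transcripts per 1000 panel transcripts of the class in a section, as mean ± SD over sections. Levels of different members are not compared, since probes differ in how well they detect their gene. The counts of negative-control probes, shared out over 6 probes (the most that any 1 cell held), gave a generous upper bound for the false signal of an average probe, at most 0.333 per 1000 in VGLUT2, 0.136 in VGLUT1, 0.432 in GAD and 2.94 in oligodendrocyte-lineage cells. Each section was set against its own bound. In the neuron classes every member lay above it in all 7 sections, except Sema3d in 6 of 7 in VGLUT2 and 5 of 7 in GAD cells. In oligodendrocyte-lineage cells Sema6a lay above it in 7 of 7 sections, Nrp2 in 5 and Sema3d in 3, whereas Sema3a, Sema3e, Sema5b and Slit2 did in 0. A level under the bound was not separated from false signal by this measure, and a fold over such a level is a ratio of measured counts. Where a fold is given as "at least", the lower side was put at its own bound in each section where the bound was higher (per 1000, geometric mean over sections). Classes were compared by edgeR's quasi-likelihood test on counts summed per section and class, with the section as a block and Benjamini-Hochberg adjustment over all 297 genes, and a change was called at an adjusted p under 0.05.

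Sema3a, whose protein is the classic secreted repellent of cortical and sensory axons, stood highest in VGLUT1 and GAD cells. In VGLUT1 cells its lowest, median and highest section values were 2.15, 2.56 and 2.80 per 1000, and in GAD cells they were 2.38, 2.48 and 2.76. In VGLUT2 cells they were 0.596, 0.968 and 1.57, and in oligodendrocyte-lineage cells 0.404, 0.529 and 0.642. Every VGLUT1 and GAD section thus lay above every VGLUT2 section, and the VGLUT2 and oligodendrocyte ranges overlapped in their ends. VGLUT2 cells were 2.88-fold lower than VGLUT1 cells (log2 difference -1.53, SE 0.13, edgeR adjusted p = 8.3e-11) and 2.49-fold lower than GAD cells (-1.32, SE 0.13, adjusted p = 1.4e-09). VGLUT1 and GAD cells did not pass the test against each other (log2 0.21, SE 0.12, adjusted p = 0.12). With cells counted in every class they met, the VGLUT2 to GAD difference shrank to -0.13 (adjusted p = 0.073) and the VGLUT2 to VGLUT1 difference to -0.37.

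Sema3e, the secreted ligand of plexin D1, stood highest in GAD cells. Its GAD sections ran from 2.87 over a median of 3.36 to 3.59 per 1000, above every section of the other classes. VGLUT1 cells had a lowest, median and highest value of 1.38, 1.92 and 2.31, VGLUT2 cells 0.753, 1.82 and 2.51, and oligodendrocyte-lineage cells 0.794, 0.886 and 1.16. GAD cells were 1.55-fold above VGLUT1 cells (log2 VGLUT1 minus GAD -0.63, SE 0.17, edgeR adjusted p = 0.0015) and 1.72-fold above VGLUT2 cells (SE 0.17, adjusted p = 0.00021). VGLUT1 and VGLUT2 cells overlapped and did not pass the test (log2 VGLUT2 minus VGLUT1 -0.15, SE 0.17, adjusted p = 0.42), and the sign of that value turned without posterior replicate 3 (0.058), whose VGLUT2 cells held the lowest Sema3e level of all. Both excitatory classes were above oligodendrocyte-lineage cells, by 1.77-fold in VGLUT1 and 1.60-fold in VGLUT2 cells, and the second of these turned to a log2 of -0.33 (adjusted p = 0.0017) with cells counted in every class they met. The oligodendrocyte level lay under the control bound in all 7 sections, and neither fold stayed above 1 over that bound. On slide 2 alone, which has 2 sections, the VGLUT1 call was lost (log2 0.80, adjusted p = 0.11), and the VGLUT2 difference was -0.10 (adjusted p = 0.83).

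Sema3d, also a secreted semaphorin, stood highest in oligodendrocyte-lineage cells. Its lowest, median and highest section values there were 1.46, 1.71 and 1.88 per 1000, against 0.328, 0.356 and 0.436 in GAD, 0.201, 0.357 and 0.476 in VGLUT2 and 0.228, 0.245 and 0.261 in VGLUT1 cells. No section of a neuron class reached the lowest oligodendrocyte section. As a ratio of measured levels the difference was 7.46-fold against VGLUT1, 5.90-fold against VGLUT2 and 5.61-fold against GAD cells (SE 0.11 on the log2 scale in each, edgeR adjusted p = 2.3e-17, 3.3e-16 and 5.2e-16). The oligodendrocyte level passed its own control bound in only 3 of 7 sections, and a limit for these folds was not formed. Among neurons, GAD cells were 1.33-fold above VGLUT1 cells (adjusted p = 0.00084). The smaller VGLUT2 to VGLUT1 difference (log2 0.34, adjusted p = 0.0048) fell to 0.22 without posterior replicate 4, where it was no longer called (adjusted p = 0.088). In neurons that held no transcript of Sox10, Opalin, Gpr17 or Pdgfra, Sema3d stood at 0.143 in VGLUT2, 0.090 in VGLUT1 and 0.134 in GAD cells. All cells of those classes held 0.33, 0.24 and 0.37.

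Nrp2, the co-receptor, stood highest in VGLUT2 cells. Its VGLUT2 sections ran from 2.75 over a median of 3.49 to 5.15 per 1000, and oligodendrocyte-lineage cells from 1.70 over 2.12 to 2.47. VGLUT1 cells had a lowest, median and highest value of 1.18, 1.71 and 1.96, and GAD cells 1.37, 1.46 and 2.19. All 7 VGLUT2 sections therefore lay above all sections of the other 3 classes. VGLUT2 cells were 2.14-fold above VGLUT1 cells (log2 1.10, SE 0.14, edgeR adjusted p = 2.3e-07) and 2.61-fold above GAD cells (log2 1.38, SE 0.14, adjusted p = 6.2e-09). Both held on each slide taken alone, with log2 values of 1.12 and 0.81 against VGLUT1 cells and 1.51 and 1.03 against GAD cells on slides 1 and 2. The 1.55-fold difference from oligodendrocyte-lineage cells (adjusted p = 0.00031) was lost in cells free of the other lineage's transcripts (log2 0.20). VGLUT1 and GAD cells did not pass the test against each other (log2 0.28, SE 0.14, adjusted p = 0.067).

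Sema5b, a transmembrane semaphorin, differed least between whole classes, its largest log2 difference being 0.86 in size. Its lowest, median and highest values were 0.777, 1.08 and 1.18 per 1000 in GAD, 0.735, 0.948 and 1.10 in VGLUT1, 0.620, 0.729 and 0.828 in oligodendrocyte-lineage and 0.389, 0.570 and 0.636 in VGLUT2 cells. VGLUT2 cells were lowest, 1.82-fold under VGLUT1 (log2 -0.86, SE 0.09, edgeR adjusted p = 3.5e-09) and 1.75-fold under GAD cells (log2 -0.81, SE 0.09, adjusted p = 1.3e-08). GAD and VGLUT1 cells overlapped and did not pass the test (log2 VGLUT1 minus GAD 0.05, adjusted p = 0.57). VGLUT1 cells passed against oligodendrocyte-lineage cells with a log2 of 0.19 (adjusted p = 0.049). That call was lost on leaving out anterior replicate 1 (0.18), intermediate replicate 1 (0.16), posterior replicate 1 (0.14), anterior replicate 2 (0.094) or posterior replicate 3 (0.097), each value being the adjusted p, and the log2 turned to -0.26 with cells counted in every class they met. The oligodendrocyte level lay under the control bound in all 7 sections.

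Sema6a, a transmembrane semaphorin that acts through plexin A receptors, stood highest in oligodendrocyte-lineage cells. Its sections there ran from 20.3 over a median of 25.3 to 26.3 per 1000. VGLUT2 cells had a lowest, median and highest value of 4.75, 6.05 and 6.87, GAD cells 3.12, 3.50 and 4.26, and VGLUT1 cells 2.09, 2.19 and 2.37. The 4 ranges did not overlap, and every neighbour in that order differed. The oligodendrocyte level was 4.82-fold above VGLUT2 (log2 VGLUT2 minus oligodendrocyte-lineage -2.27, SE 0.08, edgeR adjusted p = 4.5e-18), 8.50-fold above GAD and 12.0-fold above VGLUT1 cells (SE 0.08 in each, adjusted p = 1.5e-20 and 1.4e-21). VGLUT2 cells were 1.76-fold above GAD cells (adjusted p = 5.2e-10) and GAD cells 1.41-fold above VGLUT1 cells (adjusted p = 1.7e-06). In cells free of the other lineage's transcripts Sema6a stood at 4.83 in VGLUT2, 1.42 in VGLUT1, 1.85 in GAD and 31.3 in oligodendrocyte-lineage cells, and the GAD to VGLUT1 call was lost (log2 VGLUT1 minus GAD -0.19, adjusted p = 0.11).

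Slit2, the Robo ligand, was spread over all 3 neuron classes. Its lowest, median and highest values were 1.96, 2.17 and 2.76 per 1000 in VGLUT1, 1.72, 1.89 and 2.34 in GAD and 0.993, 1.5 and 2.54 in VGLUT2 cells, and 0.581, 0.764 and 0.856 in oligodendrocyte-lineage cells. No neuron section fell to the oligodendrocyte range. VGLUT1 cells were 2.83-fold, GAD cells 2.12-fold and VGLUT2 cells 1.89-fold above oligodendrocyte-lineage cells (edgeR adjusted p = 1.7e-09, 3.8e-07 and 4.4e-06). The oligodendrocyte level lay under its control bound in all 7 sections, and over that bound the folds were at least 1.21 in VGLUT1 and 1.03 in GAD cells, with none above 1 in VGLUT2 cells. VGLUT1 cells were 1.5-fold above VGLUT2 cells (log2 VGLUT2 minus VGLUT1 -0.58, SE 0.14, adjusted p = 0.00082) and 1.34-fold above GAD cells (log2 0.42, SE 0.14, adjusted p = 0.010). GAD and VGLUT2 cells overlapped and did not pass the test (log2 VGLUT2 minus GAD -0.16, adjusted p = 0.30). The VGLUT1 to GAD call was lost on slide 2 alone (log2 0.32, adjusted p = 0.15). With cells counted in every class they met, the VGLUT2 to VGLUT1 call was lost (log2 -0.020, adjusted p = 0.73) and VGLUT2 cells were above GAD cells (log2 0.34, adjusted p = 2.6e-06).

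**Figure D1:**
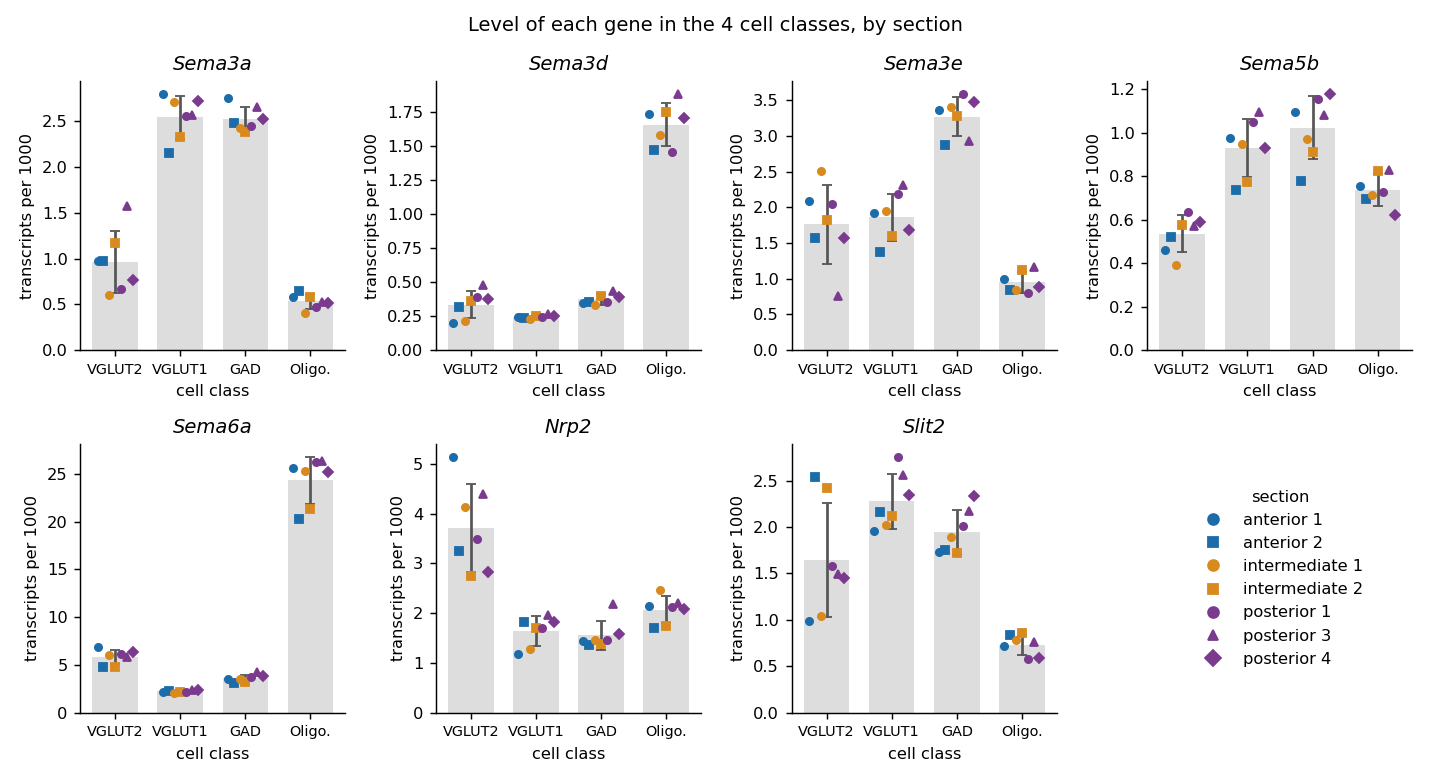
Transcripts per 1000 panel transcripts of each member in the 4 cell classes, 1 point per section and a bar with its error for the mean ± SD over 7 sections, axes starting at 0. Sema6a in oligodendrocyte-lineage cells (mean 24.3) and Nrp2 in VGLUT2 cells (mean 3.71) lie above every section of the other classes.

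Most genes of the panel, which was built to separate brain cell types, differed between classes, and the members' counts are near that background. The test called 6 of 7 members between VGLUT2 and VGLUT1 cells, where it called 83.8% of all genes, 5 of 7 between VGLUT2 and GAD cells (76.8% of all genes), and 7 of 7 between VGLUT2 and oligodendrocyte-lineage cells (83.2%). It called 4 of 7 between VGLUT1 and GAD cells (82.2%), 7 of 7 between VGLUT1 and oligodendrocyte-lineage cells (87.5%) and 6 of 7 between GAD and oligodendrocyte-lineage cells (85.2%). The members' median absolute log2 difference was 0.86 against 0.84 for all genes in the first of these pairs, and 1.45 against 1.01 in the last. It was 0.81 against 0.71 in VGLUT2 minus GAD cells and 1.5 against 1.15 in VGLUT1 minus oligodendrocyte-lineage cells, and lower than that of all genes in VGLUT2 minus oligodendrocyte-lineage (0.68 against 0.99) and VGLUT1 minus GAD cells (0.41 against 0.75). Of the 35 calls over 42 tests, 33 were kept on slide 1 alone and 28 on slide 2 alone. Oligodendrocyte-lineage cells held fewer transcripts, with section medians of 163 to 199 per cell against 346 to 474 in the neuron classes, and the scale matters there. Per cell, Sema6a averaged 4.76 transcripts in oligodendrocyte-lineage, 2.62 in VGLUT2, 1.44 in GAD and 1.03 in VGLUT1 cells, and Sema3d 0.325 against 0.149, 0.149 and 0.113, so both kept their order. Nrp2 per cell was 0.403 in oligodendrocyte-lineage cells, under the 0.768 of VGLUT1 and the 0.622 of GAD cells, the reverse of its order per 1000 transcripts. Counting per cell moved the median of all genes by up to 1.40 on the log2 scale in these pairs.

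Within the oligodendrocyte class, Sema3d and Sema5b rose together in cells with precursor markers. Gpr17, a receptor of committed precursors, reached 5 transcripts in 973 cells, Pdgfra, the growth factor receptor of precursors, in 1181 cells, and Opalin, a protein of myelinating oligodendrocytes, in 19713 cells. Sema3d stood at 7.73 ± 0.58 per 1000 in Gpr17-high cells (6.88 to 8.60 over 7 sections) and at 1.27 ± 0.12 (1.11 to 1.45) in the other cells of the class. All 7 sections showed the difference without overlap, 6.54-fold (log2 2.71, SE 0.07, edgeR adjusted p = 3.2e-23). Sema5b stood at 5.13 ± 0.72 (4.11 to 6.26) in Gpr17-high and 0.461 ± 0.036 (0.412 to 0.515) in the other cells, 11.9-fold apart as measured (log2 3.57, SE 0.09, adjusted p = 5.7e-24). Both genes lay above the control bound in all 7 sections of the Gpr17-high cells, but in the other cells Sema3d did in 1 and Sema5b in 0 sections, so the folds are at least 3.95 for Sema3d and at least 2.64 for Sema5b. The same genes rose in Pdgfra-high cells, Sema3d to 5.90 ± 0.66 (log2 2.18, SE 0.07, adjusted p = 5.3e-13) and Sema5b to 4.38 ± 0.36 (log2 3.26, SE 0.07, adjusted p = 2.3e-14), with folds of at least 3.01 and at least 2.27. The groups share cells: 441 cells were high for both Gpr17 and Pdgfra, 45.3% of the Gpr17-high and 37.3% of the Pdgfra-high cells. Opalin-high cells overlapped them too, by 379 cells (39.0% of the Gpr17-high) and 526 cells (44.5% of the Pdgfra-high). In Opalin-high cells Sema5b was lower than in the rest (0.439 ± 0.040 against 1.79 ± 0.26, adjusted p = 1.3e-14), but under the control bound in all 7 sections, so no fold is given. Sema3d fell by 0.51 on the log2 scale there and lay above the bound in 1 of 7 sections. Sema6a ran the other way, at 26.4 ± 2.7 in Opalin-high (log2 0.79, SE 0.03), 17.8 ± 2.2 in Gpr17-high and 13.4 ± 1.6 in Pdgfra-high cells (log2 -0.85, SE 0.06). Its smaller fall in Gpr17-high cells (log2 -0.38) turned to 0.16 when counted per cell. Sema3a and Nrp2 did not pass the test in any of these 3 contrasts. Sema3a lay under the control bound in all 7 sections on both sides of each, so its lack of change is not separated from false signal. The test called 5 of 7 members in the Gpr17 contrast (60.8% of all genes), 5 of 7 in the Pdgfra contrast (53.9%) and 3 of 7 in the Opalin contrast (51.5%). The summed neuronal markers moved little beside this: 6 VGLUT1 genes summed to 12.8 per 1000 in Gpr17-high and 12.4 in the other cells, and 8 GABAergic genes to 19.1 and 22.6. Pdgfra and Cspg4 together were higher in cells outside all classes (8.87 per 1000) than in the oligodendrocyte class (6.50). Those outside cells also held more of 6 fibroblast and meningeal genes (53.2 against 4.22) and 4 vessel wall genes (11.3 against 1.72). Which of them held the Pdgfra and Cspg4 transcripts was not tested.

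**Figure D2:**
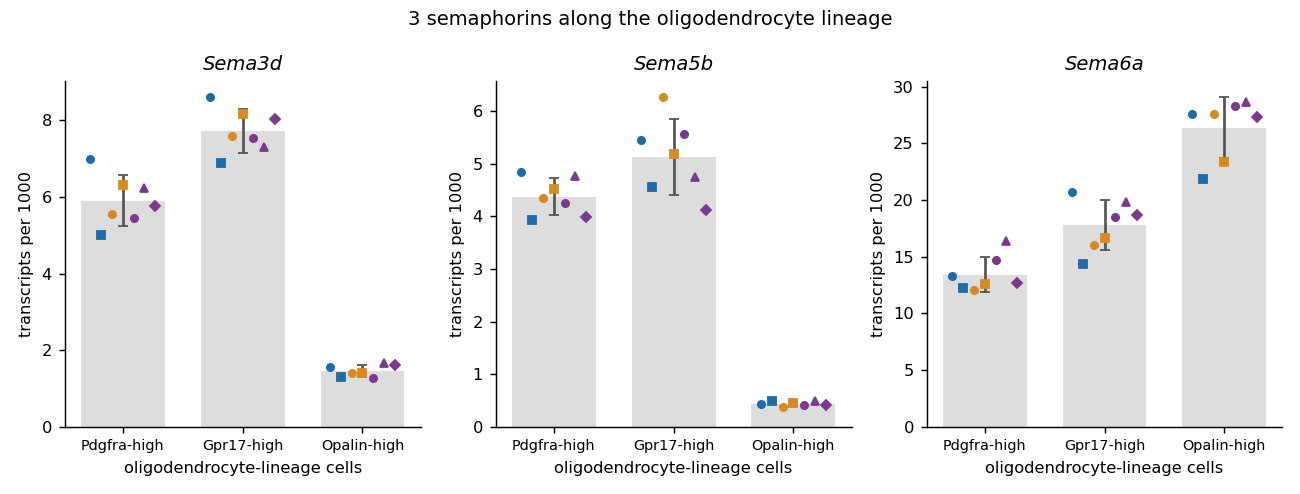
Transcripts per 1000 of Sema3d, Sema5b and Sema6a in Pdgfra-high, Gpr17-high and Opalin-high oligodendrocyte-lineage cells, 1 point per section and a bar with its error for the mean ± SD over 7 sections, axes starting at 0. Sema3d (7.73 in Gpr17-high cells) and Sema5b (5.13) are high where Sema6a is lower (17.8 against 26.4 in Opalin-high cells).

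Sema3d and Sema5b moved together in precursor-marked cells, whereas Sema3a, under the control bound there, did not pass the test. For these 3 genes the windows from 250 bases before to 50 after their start are shown, as RefSeq gives them for GRCm38.p6. Sema3d lies at chr5:12382916-12383215, Sema3a at chr5:13396534-13396833 and Sema5b at chr16:35541112-35541411, all on the plus strand and written 5′ to 3′. The start site of the Sema3a window lies 272 kb inside the gene as annotated, so it is not the outermost start, that of Sema5b 208 bases inside and that of Sema3d 5 bases inside. Capitals mark ACAAAG on either strand (CTTTGT on the strand shown), the core that SOX proteins such as Sox10 bind:
Sema3d: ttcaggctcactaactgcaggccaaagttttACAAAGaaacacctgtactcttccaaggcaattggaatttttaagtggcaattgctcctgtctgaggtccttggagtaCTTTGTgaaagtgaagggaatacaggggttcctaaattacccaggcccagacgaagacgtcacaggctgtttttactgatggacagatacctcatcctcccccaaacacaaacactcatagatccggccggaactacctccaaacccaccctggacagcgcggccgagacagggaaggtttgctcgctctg
Sema5b: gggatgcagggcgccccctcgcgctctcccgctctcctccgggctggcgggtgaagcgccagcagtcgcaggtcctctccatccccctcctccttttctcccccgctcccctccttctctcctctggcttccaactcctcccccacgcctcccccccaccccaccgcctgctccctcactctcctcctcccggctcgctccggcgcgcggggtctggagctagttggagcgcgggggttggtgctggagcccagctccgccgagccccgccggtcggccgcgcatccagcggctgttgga
Sema3a: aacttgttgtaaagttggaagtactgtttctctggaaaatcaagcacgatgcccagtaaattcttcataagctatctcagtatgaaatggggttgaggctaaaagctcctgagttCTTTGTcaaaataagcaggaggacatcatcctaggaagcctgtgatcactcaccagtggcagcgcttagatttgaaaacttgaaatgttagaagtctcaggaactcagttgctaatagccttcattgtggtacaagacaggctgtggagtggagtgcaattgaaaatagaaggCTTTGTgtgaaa
The Sema3d window held 2 matches, the Sema3a window 2 and the Sema5b window 0. Of 32851 promoter windows of this length, 6147 (18.7%) held the motif. The Sema5b window was 73.0% G and C with 27 CpG sites, above 94.3% of all windows in G and C content, while that of Sema3d was 49.7% with 8 CpG sites and that of Sema3a 41.3% with 2. Sema3d, Sema3a and Sema3e lie within 1.874 Mb of chromosome 5 with 3 other protein-coding genes between or inside their span, although each was highest in a different class or mixture of classes. Of the 7 members, 6 had a window in the table.

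Within VGLUT2 cells the members split along Prox1, a transcription factor of many thalamic neurons. Cells with at least 5 Prox1 transcripts held Sema3a at 0.166 ± 0.095 per 1000 (0.097 to 0.348) against 2.31 ± 0.77 (1.65 to 3.92) in the other VGLUT2 cells. The sections did not overlap, and the measured fall was 11.3-fold (log2 -3.50, SE 0.27, edgeR adjusted p = 2.6e-06). Sema3a in the Prox1-high cells lay above the control bound in 3 of 7 sections, so the fold is at least 8.97. Slit2 followed, at 0.512 ± 0.139 against 3.36 ± 0.70 (log2 -2.33, SE 0.14, adjusted p = 5.7e-07). Sema3d was lower too, at 0.183 ± 0.042 against 0.555 ± 0.127, and above the bound in 2 of 7 sections of the Prox1-high cells, so no fold is given. Sema3e went the other way, at 2.31 ± 0.74 against 0.946 ± 0.259 (log2 1.65, SE 0.18, adjusted p = 2.3e-05), and Sema6a with it, at 6.74 ± 1.03 against 4.44 ± 0.40 (log2 0.99). These 2 log2 values carry edgeR's scaling between sums (TMM) and are larger than the ratios of levels per 1000. Those ratios were 2.37-fold for Sema3e and 1.51-fold for Sema6a (geometric mean over sections). By total transcripts in place of TMM, the median of all genes moved by -0.40 on the log2 scale in the Prox1 contrast. The test called 6 of 7 members there, where it called 72.9% of all genes.

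Of the narrower VGLUT2 groups, Car4-high and Myo5c-high cells showed the same opposition, with Nrp2 on the side of Sema3e and Sema6a. How many of these cells were also Prox1-high was not counted. In Car4-high cells (Car4 is a carbonic anhydrase) Nrp2 stood at 6.02 ± 0.89 against 3.04 ± 0.64 (log2 1.42, SE 0.07, edgeR adjusted p = 7.3e-08) and Sema6a at 8.34 ± 1.15 against 5.09 ± 0.67. In Myo5c-high cells (Myo5c is a myosin), measured in 6 sections, Nrp2 stood at 7.93 ± 0.83 against 3.52 ± 0.88 (log2 1.92, SE 0.16, adjusted p = 3.7e-07) and Sema3e at 3.38 ± 0.74 against 1.91 ± 0.35. The log2 values for Nrp2 are again larger than its ratios of levels per 1000, 2-fold in Car4-high and 2.3-fold in Myo5c-high cells (geometric mean over sections). By total transcripts the median of all genes moved by -0.42 in the Car4 and -0.73 in the Myo5c contrast on the log2 scale. Sema3a and Slit2 were low in both groups, Sema3a at 0.141 and 0.019 and Slit2 at 0.322 and 0.097 per 1000, where the control bound reached 0.267 in Car4-high and 0.256 in Myo5c-high cells. Sema3a lay above it in 0 sections of both groups, and Slit2 in 4 of 7 and 1 of 6. The folds were at least 5.72 and 4.58 for Sema3a and at least 6.13 and 7.57 for Slit2. All 7 members were called in the Car4 contrast (79.3% of all genes) and all 7 in the Myo5c contrast (69.5%). The 7 oligodendrocyte-lineage genes were lower in these groups, 9.0 against 22.0 and 4.27 against 19.4 per 1000. Nrp2 was low in Calb1-high cells (1.58 ± 0.60 against 4.99 ± 0.58, log2 -1.44) and Necab1-high cells (1.51 ± 0.45 against 4.96 ± 0.61, log2 -1.51), both marked by calcium-binding proteins. The edgeR adjusted p was 3.8e-05 and 5.4e-06, and the test called 3 of 7 members in each, of 58.3% and 41.7% of all genes.

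The Tacr1-high VGLUT2 cells, marked by the substance P receptor, had the highest mean Nrp2 and Sema3a of the 36 groups of cells. They could be measured in 5 sections, where Nrp2 stood at 8.05, 9.42, 10.1, 12.2 and 9.53 per 1000 against 3.22 ± 0.66 in the other cells. Every section lay above every section of the rest, a 3.20-fold difference (log2 1.68, SE 0.13, edgeR adjusted p = 2.2e-06). Sema3a stood at 5.36 ± 0.97 against 0.951 ± 0.340 (log2 2.60, SE 0.17, adjusted p = 7.4e-07). A ligand and a neuropilin were thus both high in these cells, although Nrp2 is not the neuropilin through which Sema3a mainly acts. The summed GABAergic markers were also higher there, 32.6 against 10.5 per 1000, and their part in the result was not tested. Htr2c-high cells (Htr2c is a serotonin receptor) shared the high Sema3a, 2.55 ± 0.62 against 0.755 ± 0.347 (log2 1.85, SE 0.23, adjusted p = 7.6e-05), with GABAergic markers at 22.4 against 8.65. The test called 4 of 7 members in the Tacr1 contrast (65.1% of all genes) and 5 of 7 in the Htr2c contrast (65.4%).

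Among VGLUT2 groups, Slit2 reached its highest level in C1ql2-high cells. C1ql2 encodes a secreted protein of synapses, and 191 VGLUT2 cells in 6 sections reached 5 transcripts. Their Slit2 levels were 8.76, 14.7, 8.21, 10.5, 5.84 and 11.8 per 1000, against 0.859 to 2.4 in the other VGLUT2 cells. The lowest of these sections lay above the highest of the rest, and the difference was 7.19-fold (log2 2.85, SE 0.23, edgeR adjusted p = 3.4e-05). Over all 7 sections, C1ql2-high cells were 1.02% of VGLUT2 cells and held 6.19% of the class's Slit2 transcripts. Sema3e was lower in these cells, at 0.515 ± 0.262 against 1.95 ± 0.37 (adjusted p = 0.0020), and above the control bound in 4 of 6 sections, so no fold is given. The test called 4 of 7 members there, where it called 47.5% of all genes. Calb2-high cells, marked by calretinin, also had more Slit2, 2.39 ± 0.53 against 1.30 ± 0.77 (log2 1.04, SE 0.26, adjusted p = 0.0058), higher in 6 of 7 sections. All 7 members were called in the Calb2 contrast (66.4% of all genes). Bhlhe22-high cells, marked by a transcription factor, had more Sema5b (1.29 ± 0.66 against 0.520 ± 0.085, log2 1.25, SE 0.30, adjusted p = 0.0028) and less Sema6a (2.26 ± 0.74 against 5.95 ± 0.77, log2 -1.31, SE 0.17), with 3 of 7 members called (49.2% of all genes). The Pvalb contrast within VGLUT2 cells called 0 of 7 members, and 17.3% of all genes.

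**Figure D3:**
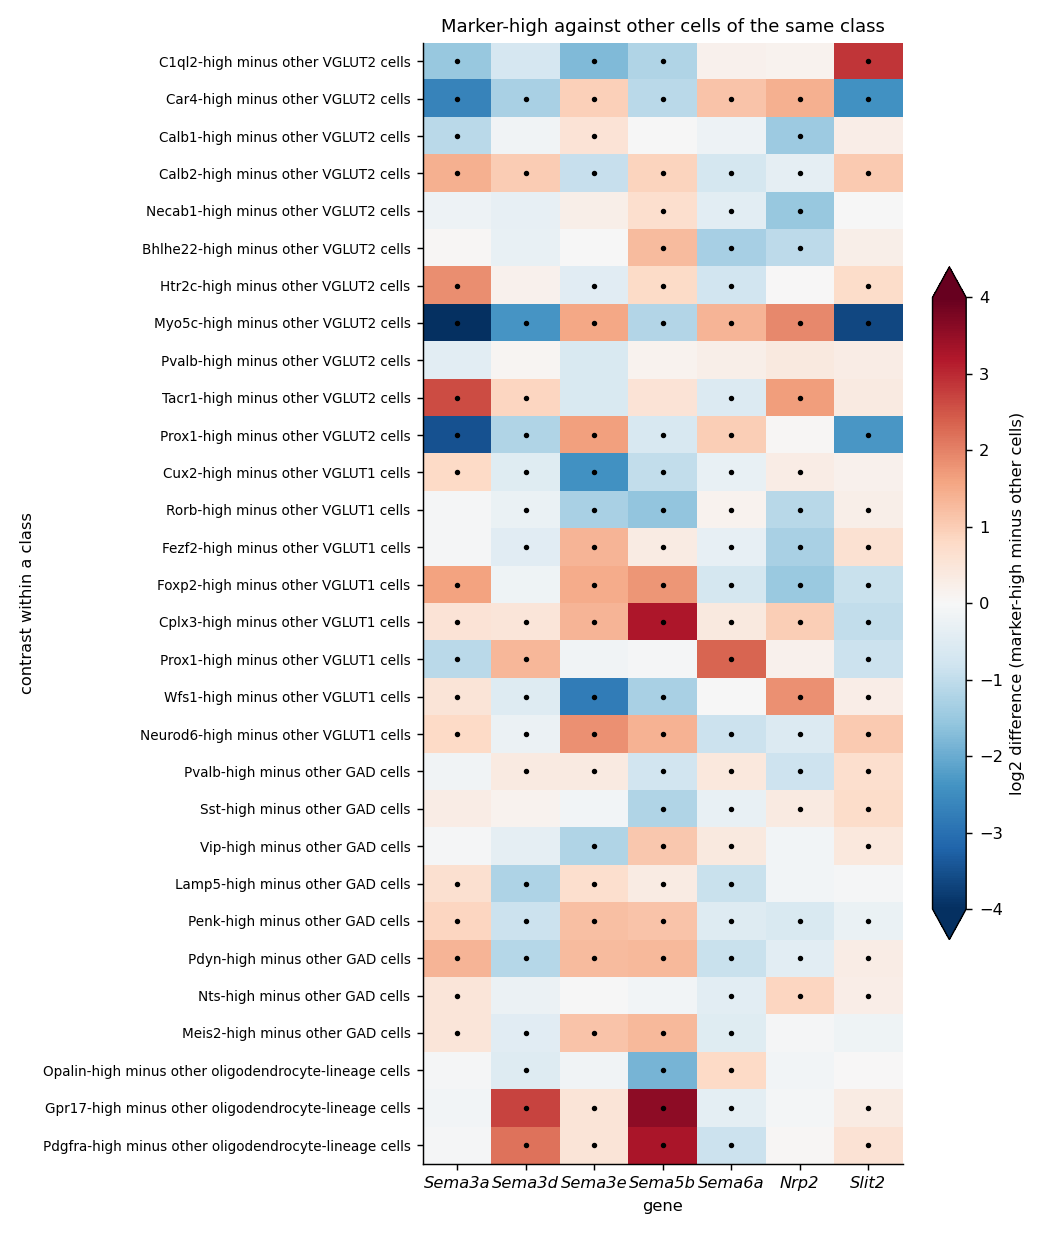
Log2 difference of each member between marker-high and other cells of the same class for 30 markers, from edgeR's quasi-likelihood test, with blue for lower, red for higher, colours saturating at 4, and a black dot on calls at an adjusted p under 0.05. Levels under the control bound are drawn as measured. Sema3a, Slit2 and Sema3d are negative where Sema3e and Sema6a are positive in Prox1-high VGLUT2 cells, and Sema5b is most positive in Gpr17-high oligodendrocyte-lineage cells (3.57).

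Among VGLUT1 cells the members differed between groups cut by single markers, several of them markers of cortical layers. No cell was assigned to a layer or region, and the class can hold hippocampal neurons. Sema5b was highest in Cplx3-high cells, marked by a complexin of the deepest cortical layer, at 5.98 ± 0.74 per 1000 (4.94 to 7.08) against 0.731 ± 0.117 (0.580 to 0.896). No sections overlapped, and the difference was 9.43-fold (log2 3.24, SE 0.05, edgeR adjusted p = 7.6e-14). The 7 oligodendrocyte-lineage genes summed to 19.9 per 1000 there against 11.9, and their part was not tested. Sema3e was high in the same cells, 3.97 ± 0.59 against 1.78 ± 0.34 (log2 1.37), and in Neurod6-high cells, marked by a transcription factor of pyramidal neurons, 2.95 ± 0.56 against 1.01 ± 0.17 (log2 1.84, SE 0.07, adjusted p = 3.8e-09). It was low in cells high for Cux2, a factor of upper cortical layers, at 0.373 ± 0.082 against 2.50 ± 0.38 (log2 -2.41, SE 0.07, adjusted p = 1.2e-10). Wfs1-high cells had still less, 0.222 ± 0.093 against 2.06 ± 0.36 (log2 -2.79, SE 0.16, adjusted p = 4.1e-09). Nrp2 was high in those Wfs1-high cells, 3.57 ± 0.68 against 1.38 ± 0.23 (log2 1.84, SE 0.08, adjusted p = 1.6e-10).

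Foxp2-high VGLUT1 cells, marked by a transcription factor of deep layers, had Sema3a at 4.54 ± 0.34 against 2.33 ± 0.22 (log2 1.62, SE 0.04, edgeR adjusted p = 1.7e-12), with Sema3e (log2 1.49) and Sema5b (log2 1.78). Their Nrp2 was low, 0.398 ± 0.074 against 1.77 ± 0.31 (log2 -1.5, SE 0.07, adjusted p = 5.9e-10). The scale of these values moves with the scaling: by total transcripts in place of TMM, the Foxp2 values for Sema3a, Sema3e and Sema5b were 0.96, 0.83 and 1.12. Prox1-high VGLUT1 cells had Sema6a at 10.2 ± 2.0 against 2.06 ± 0.09 (log2 2.34, SE 0.11, adjusted p = 2.3e-08). The 7 oligodendrocyte-lineage genes rose with it, 83.6 against 10.7 per 1000, as did Sema3d (log2 1.34), and their part was not tested. The test called 7 of 7 members in the Cplx3 contrast (83.5% of all genes) and 7 of 7 in the Neurod6 contrast (87.9%). It called 6 of 7 in the Cux2 (83.2%), Wfs1 (82.5%) and Foxp2 contrasts (88.2%) and 4 of 7 in the Prox1 contrast within VGLUT1 cells (63.0%).

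Sema5b was low in Rorb-high cells, marked by a nuclear receptor of the middle layers (0.40 ± 0.048 against 1.23 ± 0.16, log2 -1.58, SE 0.05, edgeR adjusted p = 1.5e-10), and Nrp2 with it (0.923 ± 0.141 against 2.06 ± 0.41, log2 -1.10). Fezf2-high cells, marked by a factor of deep projection neurons, had more Sema3e (3.44 ± 0.35 against 1.66 ± 0.33, log2 1.35, SE 0.07) and less Nrp2 (0.581 ± 0.072 against 1.77 ± 0.32, log2 -1.31, SE 0.07). The test called 6 of 7 members in each, of 78.1% and 88.9% of all genes.

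Among GAD cells, Sema3a was highest in Pdyn-high cells, marked by an opioid peptide precursor of striatal neurons, at 3.73 ± 0.38 against 2.35 ± 0.13 (log2 1.36, SE 0.06, edgeR adjusted p = 3.5e-09). Sema3e rose in the same cells, 4.53 ± 0.29 against 3.09 ± 0.28 (log2 1.26), and in Penk-high cells (4.16 ± 0.31 against 2.73 ± 0.41, log2 1.21), marked by another opioid precursor. By total transcripts the 3 values were 0.66, 0.55 and 0.62. Vip-high cells, marked by a peptide of cortical interneurons, had less Sema3e (1.37 ± 0.40 against 3.28 ± 0.27, log2 -1.20, SE 0.16, adjusted p = 2.9e-05) and more Sema5b (2.03 ± 0.62 against 1.02 ± 0.15, log2 1.08, SE 0.20, adjusted p = 0.00048). Sst-high cells, marked by another interneuron peptide, had little Sema5b, 0.383 ± 0.110 against 1.04 ± 0.15 (log2 -1.21, SE 0.13, adjusted p = 1.3e-06). Slit2 was higher in Sst-high (log2 0.74, SE 0.11) and Pvalb-high cells (log2 0.68, SE 0.10) in 7 of 7 sections. Nrp2 was lower in Pvalb-high cells (1.01 ± 0.15 against 1.71 ± 0.32, log2 -0.82) and higher in Nts-high cells (2.33 ± 0.29 against 1.52 ± 0.28, log2 0.86, SE 0.08). The test called 7 of 7 members in the Pdyn (86.2% of all genes) and Penk contrasts (82.5%), 6 of 7 in the Pvalb contrast (86.5%) and 4 of 7 in the Vip (57.2%), Sst (79.5%) and Nts contrasts (61.6%). Over all 30 contrasts, 71 of 210 member results (33.8%) were called with at least a 2-fold difference, against 26.2% of the results of all genes. Under scaling by total transcripts all 71 kept their direction and their call, but the 2-fold limit was not applied again. Sema3a and Sema3e in Foxp2-high and Pdyn-high cells and Sema3e in Penk-high cells fell under it. The median of all genes moved by more than 0.1 on the log2 scale in 23 of 30 contrasts under that scaling. Of the smaller calls, 5 turned sign under that scaling: Nrp2 in Cux2-high (log2 0.31 to -0.042), Slit2 in Wfs1-high (0.26 to -0.21), Slit2 in Pdyn-high (0.31 to -0.39), Sema5b in Lamp5-high (0.34 to -0.092) and Sema3a in Meis2-high cells (0.49 to -0.072). Counted per cell, Sema6a (0.38 to -0.044) and Slit2 (0.42 to -0.00075) in Vip-high cells turned sign.

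The front-to-back position of the section was compared within each class. The classes held cells of whole hemisections, and no cell was assigned to the thalamus or another region. In VGLUT1 cells Slit2 stood at 1.96 and 2.17 per 1000 in the anterior, 2.03 and 2.12 in the intermediate and 2.76, 2.56 and 2.35 in the posterior sections. All 3 posterior sections lay above the other 4, with a log2 difference from anterior of 0.29 (SE 0.09), and the value did not pass edgeR's adjusted threshold (adjusted p = 0.19). Nrp2 in the same cells stood at 1.18 and 1.82, 1.27 and 1.70, and 1.71, 1.96 and 1.82 (log2 0.27, SE 0.19, adjusted p = 0.62). Replicate 1 was below replicate 2 at both forward positions, and the difference turned to -0.0049 without anterior replicate 1. The posterior sections of GAD cells also lay above the rest for Slit2, at 2.01, 2.17 and 2.34 against 1.72 to 1.89. That difference from anterior was not called (log2 0.27, SE 0.09, edgeR adjusted p = 0.30). Sema6a in GAD cells stood at 3.77, 4.26 and 3.86 against 3.12 to 3.50 (log2 0.21, SE 0.08, adjusted p = 0.33). In VGLUT2 cells Sema3d stood at 0.201 and 0.315, 0.210 and 0.357, and 0.386, 0.476 and 0.378, the largest difference of a member (log2 0.63, SE 0.31, adjusted p = 0.997), where it lay above the control bound in 6 of 7 sections. Slide 2 held posterior replicates 3 and 4 and no anterior or intermediate section. Position and slide are thus told apart only by posterior replicate 1.

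Of the 297 genes, the test called 0 from anterior to posterior in each class, 0 of 7 members against 0.0% of all genes in VGLUT2, VGLUT1, GAD and oligodendrocyte-lineage cells. Unadjusted p-values under 0.05 were found for 2, 42, 35 and 15 genes in that order, and DESeq2 called 0, 15, 11 and 0. The test of whether position acted differently between classes also called 0 genes (0.0%), with 13 at an unadjusted p under 0.05. Adding the replicate number as a block, which then rests on 1 posterior section, changed calls in VGLUT1 cells: Slit2 rose from anterior to posterior with a log2 of 0.46 (edgeR adjusted p = 8.1e-08), Nrp2 with 0.46 (adjusted p = 2.0e-06) and Sema3e with 0.22 (adjusted p = 0.031). The block raised the calls over all genes to 68 in VGLUT1, 38 in GAD and 10 in oligodendrocyte-lineage cells. For Slit2 on slide 1 alone the difference was 0.40 (adjusted p = 0.31).

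In VGLUT2 cells the replicates stood apart. Slit2 was at 0.993, 1.04 and 1.58 per 1000 in replicate 1 at the anterior, intermediate and posterior positions, at 2.54 and 2.42 in replicate 2, and at 1.5 and 1.45 in posterior replicates 3 and 4. Nrp2 showed the opposite at the forward positions, at 5.15, 4.13 and 3.49 in replicate 1, 3.24 and 2.75 in replicate 2, and 4.39 and 2.83 in posterior replicates 3 and 4. The make-up of the class moved with these values: Prox1-high cells were 69.7%, 71.1% and 57.5% of VGLUT2 cells in replicate 1, 41.2% and 42.5% in replicate 2, and 36.3% and 60.3% in replicates 3 and 4. Calb2-high cells were 33.7%, 21.9% and 32.6% in replicate 1, 53.1% and 52.2% in replicate 2, and 54.6% and 27.1% in replicates 3 and 4. The part of this make-up in the member levels was not tested.

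**Figure D4:**
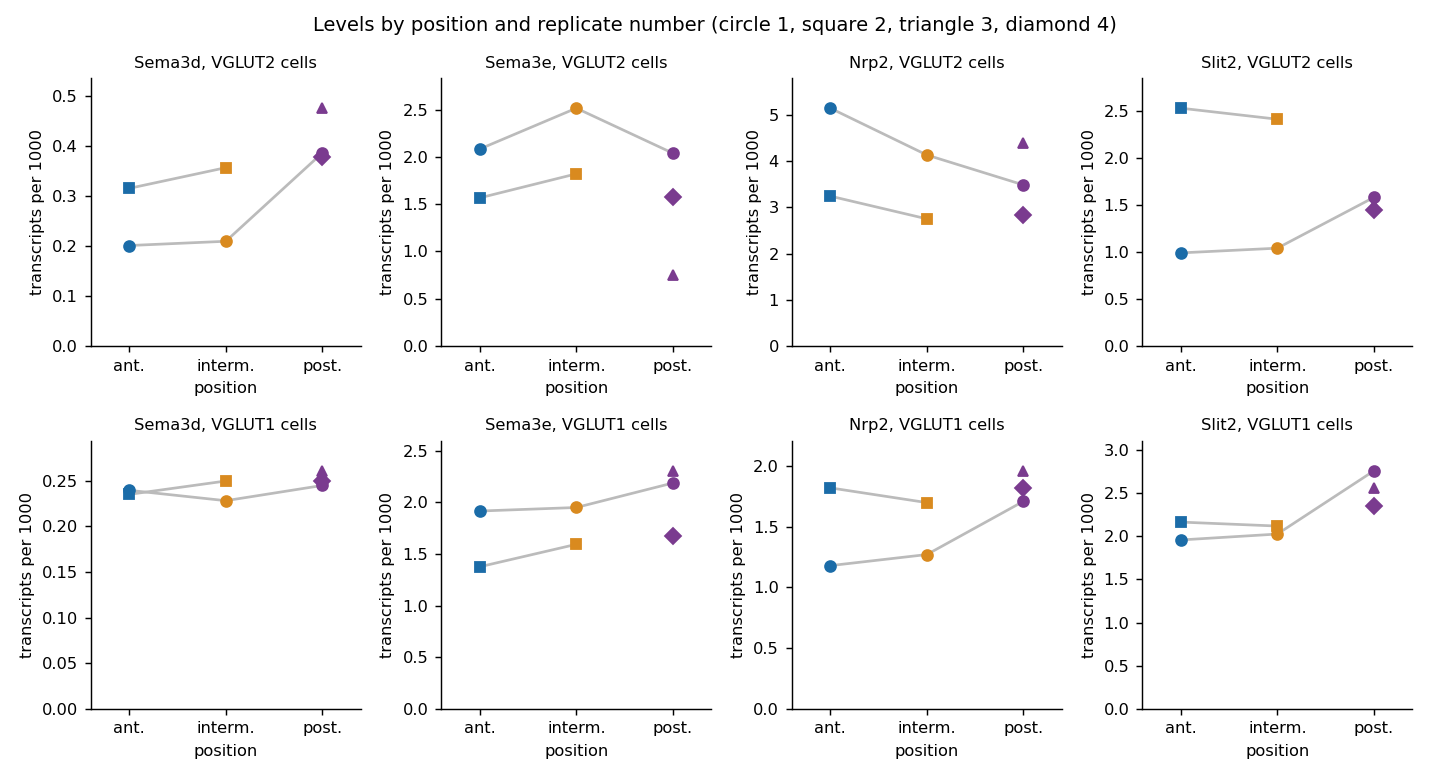
Transcripts per 1000 of Sema3d, Sema3e, Nrp2 and Slit2 by position in VGLUT2 and VGLUT1 cells, 1 point per section with the replicate number as its shape, lines joining sections of the same number, axes starting at 0. Slit2 in VGLUT2 cells is at 0.993 and 1.04 in replicate 1 and 2.54 and 2.42 in replicate 2 at the forward positions.

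Members were also compared cell by cell, after thinning every cell to 200 transcripts, which kept 93.9% of VGLUT2, 91.0% of VGLUT1, 87.1% of GAD and 39.6% of oligodendrocyte-lineage cells. The number of cells holding both members of a pair was set against the number given by independence within each section, in 83 pairs by class, and ratios are geometric means over sections. An exact sign-flip test over 7 sections has a smallest p of 0.015625 (0.032 adjusted over the 162653 pairs of all panel genes by class), reached where all 7 sections lie on one side. Were sections of the same replicate number not independent, the 4 numbers would be the units. The smallest p would then be 0.125, at which no pair could pass. Sema3d and Sema5b were found together 2.0 times as often as independence gives in oligodendrocyte-lineage cells (526 cells against 262.9, mean log2 ratio 1.0 ± 0.07, above 0 in 7 of 7 sections). Section medians of transcripts per cell were 256.5 to 300 in Gpr17-high and 247 to 283 in Pdgfra-high cells, against 163 to 198 in Opalin-high cells. The cells kept in this class thus lean to those with precursor markers. In the whole class Sema5b lay under the control bound in all 7 sections. The pair was also above independence in VGLUT1 (ratio 1.89) and GAD cells (1.66). Sema3a and Slit2, both low in Prox1-high cells, were found together 1.77 times as often in VGLUT2 cells (685 cells against 400.8), and Sema3a with Nrp2 1.42 times. Sema3e was found less often than independence gives with Slit2 in VGLUT2 cells (ratio 0.651) and with Nrp2 in GAD cells (0.579, 3498 cells against 6067). In VGLUT1 cells Sema3e and Sema5b shared cells 1.57 times as often. Each of these was at the smallest p the test allows in this thinning. A second random thinning to 200 transcripts was used for all panel pairs. There Sema3e with Slit2 in VGLUT2 cells had an exact sign-flip p of 0.03125 (adjusted p = 0.056) and was not called. In all, 24 pairs were above and 21 below the number given by independence at a p adjusted over the 83 pairs under 0.05. In the second thinning, adjusted over all panel pairs, 26 member pairs were above and 19 below, 45 of 83. The test called 48.5% of all panel pairs there, so the members' count is near the background. Sema3d and Sema6a, both highest in oligodendrocyte-lineage cells, were found together 1.5 times as often in VGLUT1 and 1.45 times in GAD cells. The 7 oligodendrocyte-lineage genes summed to 12.2 and 23.9 per 1000 in those classes, and their part was not tested.

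**Figure D5:**
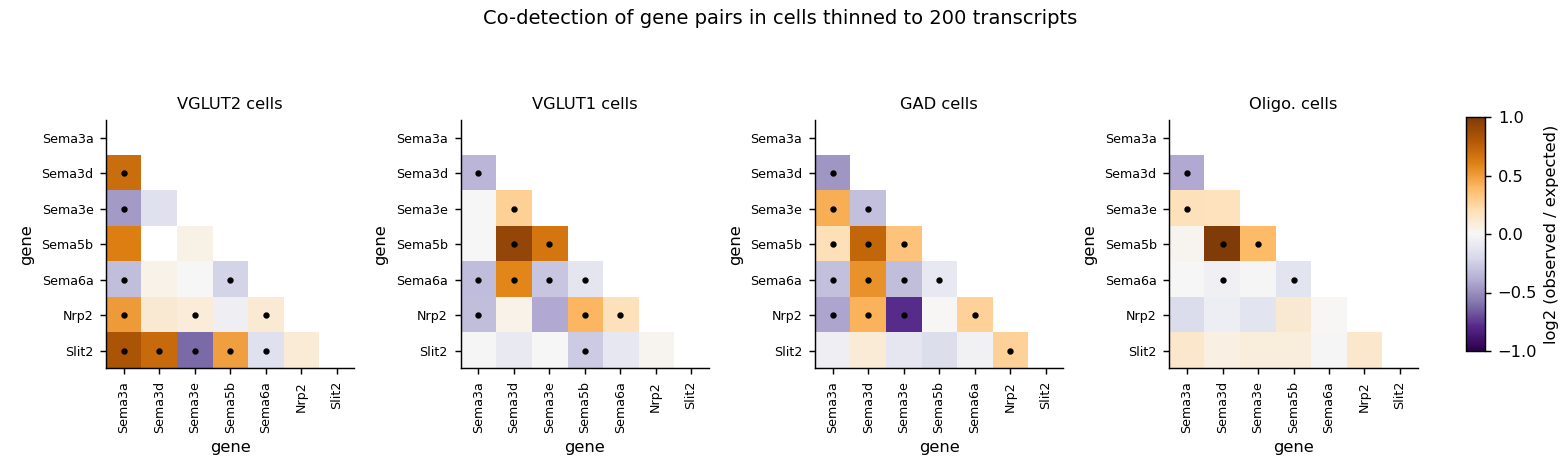
Mean log2 ratio of observed to independent numbers of cells holding both members, per pair and class, after thinning to 200 transcripts; orange marks pairs above and purple pairs below independence, with a black dot where all 7 sections lie on one side. Sema3d with Sema5b reaches 1.0 in oligodendrocyte-lineage cells and Sema3e with Nrp2 -0.79 in GAD cells.

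The genes with the most similar pattern were found by Spearman correlation of mean levels over 36 groups of cells, which share sections and, in part, cells. For Sema3a these were Plcb1 (0.84), Htr1f (0.83) and Col19a1 (0.83), and for Sema3d Pdgfra (0.76), Cspg4 (0.66) and Spi1 (0.64). Sema3e was closest to Grik3 (0.77), Pcp4 (0.73) and Syt6 (0.59), and Sema5b to Syt6 (0.69), Tle4 (0.64) and Rprm (0.63). Sema6a was closest to C1ql2 (0.83), Prox1 (0.82) and Tanc1 (0.81). Pdgfra, C1ql2 and Prox1 are themselves markers by which some of the 36 groups were cut, and the part of this in their likeness was not tested. Nrp2 was closest to Adamts2 (0.66), Inpp4b (0.62) and Igfbp5 (0.61), and Slit2 to Sorl1 (0.57), Vat1l (0.56) and Npnt (0.48). Between members, the most opposed pair was Sema3a and Sema6a (-0.71).

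The other guidance genes of the panel were 3 Eph receptors, Epha1, Epha4 and Epha8, which bind ephrins on neighbouring cells. Of the 3, 2 were higher and 1 lower in VGLUT2 than in VGLUT1 cells, Epha1 by 2.97 and Epha8 by 2.84 on the log2 scale (edgeR adjusted p = 2.5e-10 and 2.6e-14), with Epha4 lower (log2 -0.96). Against GAD cells, 2 of 3 were higher and 0 lower. Epha1 and Epha8 were lower and Epha4 higher in VGLUT1 and GAD cells than in oligodendrocyte-lineage cells.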

How the data were processed

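Cells of 7 sections were measured by Xenium. The authors deposited 1 table of raw transcript counts per gene and cell and a table that names each cell's section. Processing with Seurat is given in the submitters' processing notes. Its version and the way cells were segmented or filtered were not given in the sources used here. Counts were used as deposited, no cell was removed and no doublet caller was run, since the cells are segments of tissue. The members, classes, markers and lists were chosen with earlier results of these data known. All 7 members are named. For each, the 3 genes most alike over 36 groups are given, leaving out genes under 1 per 1000 in every group.

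Counts were summed per section and class (or marker-high and other cells, at least 5 transcripts and 20 cells per side) and tested with edgeR 4.0.16 (TMM, glmQLFit and glmQLFTest) in R 4.3.3, with the section as a block except between positions. Standard errors were taken as the log2 difference over the root of F. Scripts were tested on simulated data. DESeq2 1.42.0, other scalings, class thresholds of 3 and 10, single slides and leaving out each section were alternatives. Cells free of the other lineage's transcripts were added as an alternative after seeing the data. Counting and figures used Python 3.11.15 with numpy 2.4.6, pandas 2.3.3, scipy 1.17.1 and matplotlib 3.10.9.

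Replicate numbers were checked by correlating deviations from the position means over 297 genes. Sections with the same number correlated at 0.37 to 0.83 in VGLUT2, 0.34 to 0.87 in VGLUT1 and 0.33 to 0.74 in GAD cells. In oligodendrocyte-lineage cells the values ran from -0.20 to 0.65. Where a position has 2 sections, their deviations are mirror images, so few of these values are independent. In VGLUT2 cells, anterior against intermediate gave 0.832 for the same number and -0.832 for crossed numbers. The check therefore cannot settle whether the numbers pair sections, and the labels do not say what a number shares. The depth per section was 681062 to 2001146 transcripts in VGLUT2, 5194552 to 6594928 in VGLUT1, 4223275 to 6245564 in GAD and 559335 to 816288 in oligodendrocyte-lineage cells.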

Additional observations from a re-analysis of the deposited data

Results flagged for a closer look

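Nrp2 in GAD cells of posterior replicate 3 stood at 2.188 per 1000, apart from the 1.367 to 1.583 of the other 6 sections. Its gap to the nearest section was 0.736 of the whole range, over the critical value of 0.568 for 7 sections. Of 28 combinations of member and class tested this way, 1 passed, and chance passes about 1 in 20. Nts-high cells, where Nrp2 is higher, were 7.65% of GAD cells in that section and 2.61% to 3.71% in the others. Their part was not tested.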

How the results depend on the processing

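Of 42 member differences between classes, 38 to 42 kept their direction under each alternative, and of 35 calls 28 to 35 were kept. The values that turned sign were Sema3e in VGLUT2 minus VGLUT1 cells on slide 1 only (0.013) and without posterior replicate 3 (from -0.25 to 0.058 on leaving out each section), Sema3d in VGLUT2 minus GAD cells with a class threshold of 10 (0.047), in cells free of the other lineage (0.20) and on slide 2 only (0.15), and Sema5b in VGLUT1 minus GAD cells with library size scaling (-0.14), DESeq2 (-0.031) and cells free of the other lineage (-0.22). With cells kept in every class they met, Slit2 in VGLUT2 minus GAD cells turned to 0.34, and against oligodendrocyte-lineage cells Sema3e in VGLUT2 cells turned to -0.33 and Sema5b in VGLUT1 and GAD cells to -0.26 and -0.40. The oligodendrocyte rule by 4 genes turned the last 2 to -0.20 and -0.23. Sema3e in VGLUT2 minus oligodendrocyte-lineage cells was -0.10 on slide 2 only. Counting per cell turned Sema5b in VGLUT2 (0.72) and Nrp2 in VGLUT1 (0.92) and GAD cells (0.61), all against oligodendrocyte-lineage cells. It moved the share of called genes higher in VGLUT2 than in oligodendrocyte-lineage cells from 47.0% to 84.6%, in VGLUT1 cells from 51.1% to 82.4% and in GAD cells from 46.2% to 88.9%. Library size scaling moved the VGLUT2 and GAD shares to 57.2% and 57.4%, and the share higher in VGLUT1 than GAD cells from 50.4% to 40.2%. Slide 2 only called 2 members in VGLUT1 minus GAD cells (4 with all sections) and 4 in VGLUT1 minus oligodendrocyte-lineage cells (7).

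From anterior to posterior, genes called in VGLUT1 cells went from 0 to 15 with DESeq2, 68 with the replicate block and 6 on slide 1 only, in GAD cells to 11 with DESeq2 and 38 with the block, and in oligodendrocyte-lineage cells to 10 with the block. Of 28 member values by class, the block called 3, Slit2, Nrp2 and Sema3e in VGLUT1 cells. Between classes, the replicate number in place of the section kept 34 of 35 calls. Nrp2 in VGLUT1 cells turned to -0.0049 without anterior replicate 1. Leaving out a section called 0 to 11 genes in VGLUT1 cells (11 without posterior replicate 4) and 0 to 5 for position by class (5 without posterior replicate 3). Genes called in C1ql2-high cells were 140, 90 with a marker threshold of 3, and 89 to 140 on leaving out a section (89 without posterior replicate 4). Necab1-high cells gave 123 genes and 185 with library size scaling, Prox1-high VGLUT1 cells 187 and 103 with a marker threshold of 10, and Pvalb-high VGLUT2 cells 22 to 51 on leaving out a section (22 without anterior replicate 2, 23 without intermediate replicate 2). The cause of these changes was not tested. False signal limits Sema3d in VGLUT2 and GAD cells and all members but Sema6a in oligodendrocyte-lineage cells, where levels lay under the control bound in some or all sections.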

Other observations

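Outside the 4 classes, Slit2 was highest in cells with at least 5 transcripts of Spag16, a gene of motile cilia, at 11.3 ± 1.6 per 1000 (SD, 7 sections), where 6 groups of cells marked by non-neuronal genes were described without a test. Dcn-high cells, marked by a matrix protein of fibroblasts, held Nrp2 at 4.79 ± 0.44 and Slit2 at 3.35 ± 0.66. Sema3d in the same Dcn-high cells stood at 1.76 ± 0.61, beside 1.66 in the whole oligodendrocyte class. Sema6a was highest among these groups in Cldn5-high cells, marked by a junction protein of endothelium, at 6.72 ± 0.47. Sema3a stood at 0.13 ± 0.02 in Spag16-high cells, under the control bound in all 7 sections.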
